A study of Mus musculus with 8 samples.

Results

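The Toll-like receptor adaptors, the IRAK kinases and the TRAF proteins TRAF6 and TRAF1 carry the signal of lipopolysaccharide (LPS) from its receptor to the kinases that switch on inflammatory genes. The 10 genes described here (Myd88, Tirap, Ticam1, Ticam2, Irak1, Irak2, Irak3, Irak4, Traf6 and Traf1) were chosen by name, by a rule that uses no measured value, and all 10 were found among the 23143 gene symbols of the count table. RNA of RAW264.7 cells, a macrophage-like mouse tumour line, was sequenced from unstimulated cells (0 min) and from cells given 100 ng/ml LPS of Escherichia coli for 15, 30, 45, 60, 75, 90 or 120 min. All groups are the same unmodified line, and since 1 library stands for each time, differences between times lack a replicate check. The labels call the RNA fraction cytoplasmic, whereas the methods of the study speak of total RNA.

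LPS is sensed by TLR4 together with CD14 and MD-2. At the cell surface the bridging adaptor TIRAP brings in MyD88, on which IRAK4 and then IRAK1 and IRAK2 assemble, and these kinases engage TRAF6, a ubiquitin ligase that activates the kinases upstream of NF-kB and of the MAP kinases. From endosomes the receptor signals through a second pair of adaptors, TRAM (the product of Ticam2) and TRIF (the product of Ticam1), toward the interferon-inducing kinases. IRAK-M (the product of Irak3) is an inhibitor within this family, and TRAF1, which lacks the ligase domain of the other TRAF proteins, joins complexes of TRAF2 and the cellular IAP proteins.

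Total counts ranged from 100250892 at 75 min to 159077286 at 120 min. Reads of the ribosomal RNA precursor Rn45s made up 8.18% to 9.11% of the libraries of 0, 30, 60 and 120 min but 12.96% to 20.5% of those of 15, 45, 75 and 90 min. For the 10 genes, results that rest on a trend are also given for each set of 4 alone. Trend results of other pathway genes are given for all 8 libraries only. Counts were divided by median-of-ratios size factors (normalized counts), and a gene was counted as higher or lower where its log2 ratio to the 0 min library was beyond 0.5, among the 12166 genes whose normalized count averaged 10 or more. Intervals are exact conditional binomial 95% intervals for a ratio of 2 libraries and cover counting error only. Summed over 6 genes, the macrophage markers lay between 5380 and 6560 cpm, the count scaled to the library total, in every library, whereas the marker lists of T cells, B cells, fibroblasts and epithelium each summed to at most 0.150. Lyz2 alone gave 3060 to 4400 cpm of the macrophage sum. Cd14, which rose with LPS, ranged from 431 to 1610 cpm, so the sum does not show that each marker was steady. In bulk RNA, a change in the share of cells that carry a message and a change in its level per cell cannot be told apart.

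Of the 10 genes, none was past the fold limit at 15 min, where 2.79% of all tested genes were higher and 2.15% lower. At 30 min 1 gene was higher (Traf1) against 4.2% of all tested genes, and none was lower against 2.5%. At 45 min 2 were higher (Traf1 and Ticam1) against 10.5%, and none was lower against 5.84%. At 60 min these 2 were higher against 9.08% of all tested genes, and 1 (Ticam2) was lower against 7.46%. At 75 min the same 2 genes were higher against 12.7%, and Ticam2 was lower against 11.3%. At 90 and at 120 min 4 genes were higher (Traf1, Ticam1, Irak2 and Irak3), against 14.1% and 16.9% of all tested genes, and Ticam2 was lower, against 12.4% and 15.9%. Myd88, Tirap, Irak1, Irak4 and Traf6 stayed within the limit at every time on the scale of size factors. The median log2 ratio of the 10 genes was 0.21 at 60 min and 0.32 at 120 min, beside medians close to 0 over all tested genes (-0.01 at 120 min).

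**Figure D1:**
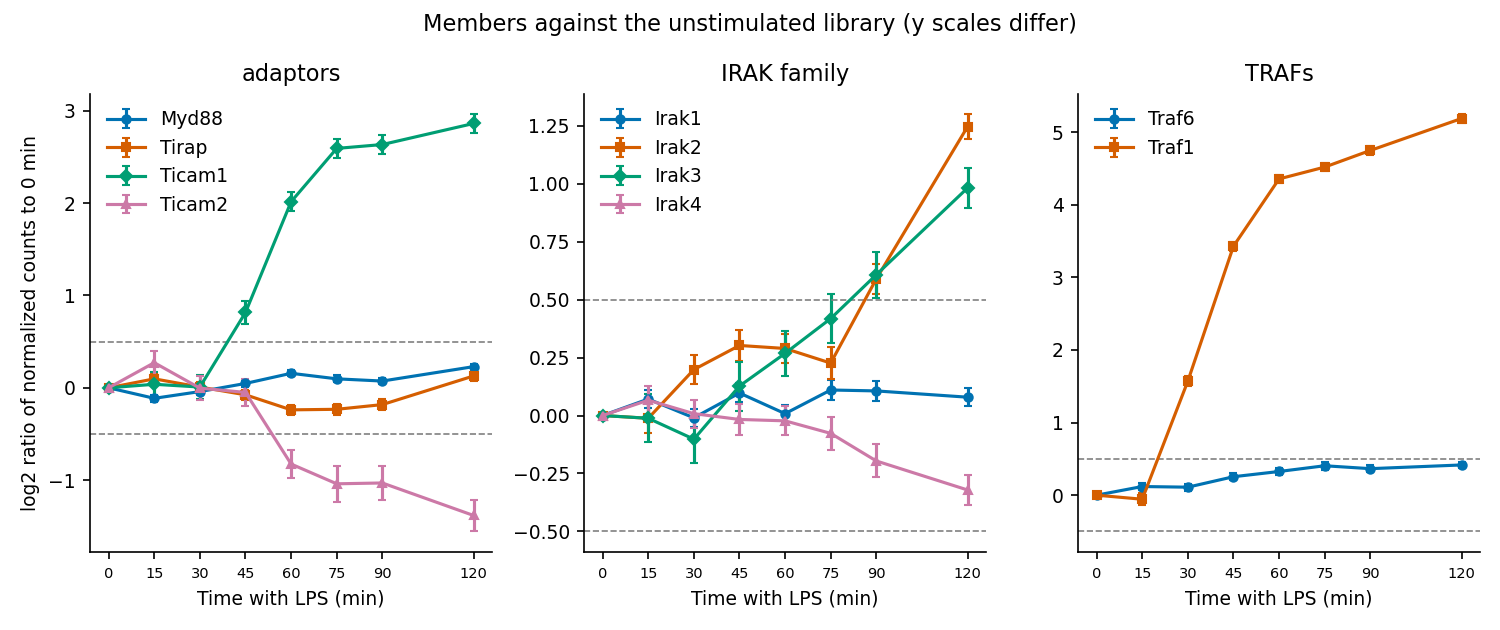
Log2 ratio of normalized counts to the 0 min library (y axis, a different scale in each panel) against time with LPS in min (x axis) for the adaptors, the IRAK family and the TRAFs, with 1 library per point, 95% intervals for counting error as bars and dashed lines at 0.5 and -0.5. Traf1 leaves the limit at 30 min, Ticam1 at 45 min and Irak2 and Irak3 at 90 min, and Ticam2 falls below it from 60 min.

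A straight line in time was fitted to all 8 libraries with edgeR's quasi-likelihood test, in which the scatter about the line stands in for replicates and the Benjamini-Hochberg adjustment runs over all 12166 tested genes. By this test 6 of the 10 genes rose and 2 fell, beside 23.1% of all tested genes that rose and 24.2% that fell (47.3% in either direction). The labels do not say whether the libraries came from separate cultures, so these p-values measure the spread of libraries about the line, which may be technical. A bend in a time course also counts as such spread, so a gene that peaks and dips can fail this test.

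No promoter window was used for Ticam2. RefSeq promoter windows (250 bases before to 50 after a start, build GRCm38.p6) of the other 9 genes were searched on both strands. The NF-kB-type pattern GGGANNNNCC was found in those of 4 genes (Irak1, Irak3, Tirap and Traf6), for Irak3 and Tirap in 1 of their 2 windows, and over all genes with such a window 22.9% hold it. A pair of GAAA elements with 2 bases between them, as in interferon-response elements, was found in that of Myd88, against 3.99% of all genes. TGANTCA (AP-1) and TGACGTCA (CRE) were in none of the 9, against 8.97% and 2.03%. Irak3 is shown because it is the gene with the NF-kB-type letters whose RNA passed the fold limit, and the others because theirs stayed within it. Sequences run 5′ to 3′ on the strand of the gene, and capitals mark the match, which for Irak3, Tirap and Traf6 is the reverse complement of the pattern. The Irak3 match (chr10:120201603-120201632, minus strand) begins at base -25 from the start, that of Irak1 (chrX:74023920-74023949, minus strand) at -21 or -18 from either of its 2 starts, that of Tirap (chr9:35199883-35199912, minus strand) at 4, that of Traf6 (chr2:101678353-101678382, plus strand) at -57 and that of Myd88 (chr9:119340039-119340068, minus strand) at -40.
Irak3: ggtctcgcagGGCGCATCCCtggggagcgg
Irak1: agggcggcgcGGGACGCCCCcgtgtggcgg
Tirap: ccggggcgcgGGCACTTCCCggacgagtct
Traf6: gacagggggcGGCCTCTCCCgcggggcctc
Myd88: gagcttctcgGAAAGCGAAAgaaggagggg
These are matches of letters and not measured sites. The letters of the NF-kB-type pattern are not in the windows of Traf1, Ticam1 and Irak2, which says nothing about what lies outside them.

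Among the adaptors, the pair that acts from endosomes moved in opposite directions, and the pair of the MyD88 branch moved little. Ticam1 encodes TRIF, the adaptor that links TLR4 and TLR3 to the kinases of interferon induction, and lies on chromosome 17 (GRCm38, chr17:56269462-56276767). In the libraries from 0 to 120 min, taken in order of time, its normalized counts were 811, 833, 816, 1428, 3280, 4892, 5037 and 5899. The first 3 libraries were alike, and every later library stood above them. The ratio to 0 min was 1.76 at 45 min (1.62 to 1.92), 4.04 at 60 min (3.76 to 4.35) and 7.27 at 120 min (6.80 to 7.79). Its steepest step was between 45 and 60 min, a ratio of 2.30 (2.15 to 2.45), whereas from 75 to 90 min the ratio was 1.03 (0.983 to 1.08). Its slope of 1.82 ± 0.244 (SE) log2 units per hour passed the trend test (adjusted p = 0.000553, edgeR).

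Ticam2 encodes TRAM, which recruits TRIF to TLR4, and lies on chromosome 18. In the same order its normalized counts were 822, 992, 820, 794, 464, 400, 402 and 315. The 4 libraries up to 45 min thus stood above the 4 later ones, with the highest value at 15 min. Its level was 0.564 of that at 0 min after 60 min (0.506 to 0.628) and 0.383 after 120 min (0.340 to 0.432), and the slope was -0.89 ± 0.128 log2 units per hour (adjusted p = 0.000758, edgeR). The step from 45 to 60 min, in which Ticam1 more than doubled, took Ticam2 to 0.584 of its level (0.521 to 0.655).

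Myd88, the adaptor shared by nearly all Toll-like receptors and the IL-1 receptor family, was the most abundant of the adaptors throughout. Its normalized counts ranged from 10809 at 15 min to 13718 at 120 min, with a median of 12202 and 11701 at 0 min. The ratio at 120 min was 1.17 (1.15 to 1.199), within the fold limit. A small slope of 0.13 ± 0.0378 log2 units per hour passed the trend test (adjusted p = 0.0196, edgeR), but not without the 15 min library (adjusted p = 0.0583) or the 120 min library (adjusted p = 0.128). Tirap, which carries MyD88 to the membrane, dipped and came back. In order of time it had 5181, 5542, 5210, 4917, 4391, 4408, 4565 and 5663 normalized counts, so that the values from 60 to 90 min are the lowest and the value at 120 min is the highest. The ratio was 0.847 at 60 min (0.816 to 0.880) and 1.09 at 120 min (1.06 to 1.13). A straight line did not pass (-0.04 ± 0.0731 log2 units per hour, adjusted p = 0.696, edgeR). A natural spline with 3 degrees of freedom did (adjusted p = 0.00183, edgeR), and so did a straight line without the 120 min library (-0.21 log2 units per hour, adjusted p = 0.0144, edgeR).

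In the IRAK family, Irak2 and the inhibitor Irak3 were higher late in the course, and Irak1 and Irak4 stayed within the fold limit. Irak2 encodes a kinase-like partner of IRAK4 that sustains the signal to TRAF6 (chr6:113638467-113695026). From the unstimulated library to the last, its normalized counts were 3410, 3382, 3912, 4204, 4166, 3989, 5130 and 8083. The values from 30 to 75 min form a low plateau above the first pair of libraries, and the last pair stand above it. The ratio to 0 min was 1.22 at 60 min (1.17 to 1.27), 1.505 at 90 min (1.44 to 1.57) and 2.37 at 120 min (2.28 to 2.46). The step from 90 to 120 min alone was 1.58 (1.52 to 1.63). The slope was 0.55 ± 0.0906 log2 units per hour (adjusted p = 0.00141, edgeR), and without the 120 min library it was 0.33 (adjusted p = 0.00909).

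Irak3 encodes IRAK-M, known as a brake on the release of IRAK proteins from the receptor complex (chr10:120141648-120202130). Over the course it had 1386, 1374, 1291, 1513, 1669, 1852, 2111 and 2735 normalized counts. From its lowest value at 30 min each later library was higher than the one before. The ratio was 1.204 at 60 min (1.13 to 1.29), 1.52 at 90 min (1.42 to 1.63) and 1.97 at 120 min (1.86 to 2.10), with a slope of 0.52 ± 0.0634 log2 units per hour (adjusted p = 0.000366, edgeR). Irak2 and Irak3 thus crossed the limit at the same time point, and their slopes lie within each other's 95% intervals (0.35 to 0.76 for Irak2 and 0.37 to 0.66 for Irak3); the difference between them was not tested.

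Irak1, the kinase that IRAK4 phosphorylates, moved least of the 10. Its normalized counts ranged from 9021 at 30 min to 9807 at 75 min with a median of 9572, so that the highest value was 1.09 times the lowest. The slope was 0.04 ± 0.0286 log2 units per hour (adjusted p = 0.323, edgeR). Irak4, the first kinase of the complex, had 3662 normalized counts at 0 min, its highest value of 3834 at 15 min and its lowest of 2931 at 120 min, with a median of 3612. The last 2 libraries are its lowest, and its level at 120 min was 0.8004 of that at 0 min (0.766 to 0.837). Its slope of -0.18 ± 0.0387 log2 units per hour passed the test (adjusted p = 0.00556, edgeR), while the fold stayed within the limit.

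Traf1 changed most of the 10, and first. It lies on chromosome 2 (chr2:34941750-34961812). From 0 to 120 min its normalized counts were 2176, 2093, 6463, 23425, 44538, 49868, 58433 and 79274. The libraries at 0 and 15 min were alike, and from 30 min each was higher than the one before. The ratio to 0 min was 2.97 at 30 min (2.84 to 3.11), 10.8 at 45 min (10.3 to 11.2), 20.5 at 60 min (19.7 to 21.3) and 36.4 at 120 min (35.0 to 37.9). Its steepest steps were 3.09-fold from 15 to 30 min and 3.62-fold from 30 to 45 min, followed by 1.90-fold to 60 min and between 1.12-fold and 1.36-fold for each later step. The slope was 3.04 ± 0.526 log2 units per hour (adjusted p = 0.00185, edgeR), and this wide error includes the bend away from a straight line. Of the 12166 tested genes, 40 had a higher ratio than Traf1 at 60 min and 47 at 120 min, whereas 167 and 165 had a higher ratio than Ticam1.

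Traf6, the ubiquitin ligase on which the MyD88 branch converges, rose slightly. Its normalized counts in order of time were 5734, 6227, 6188, 6837, 7189, 7594, 7383 and 7652. The 0 min library is the lowest, and the last 3 lie close together. The ratio at 120 min was 1.33 (1.29 to 1.38), within the fold limit, and the slope of 0.21 ± 0.0363 log2 units per hour passed the trend test (adjusted p = 0.00171, edgeR).

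**Figure D2:**
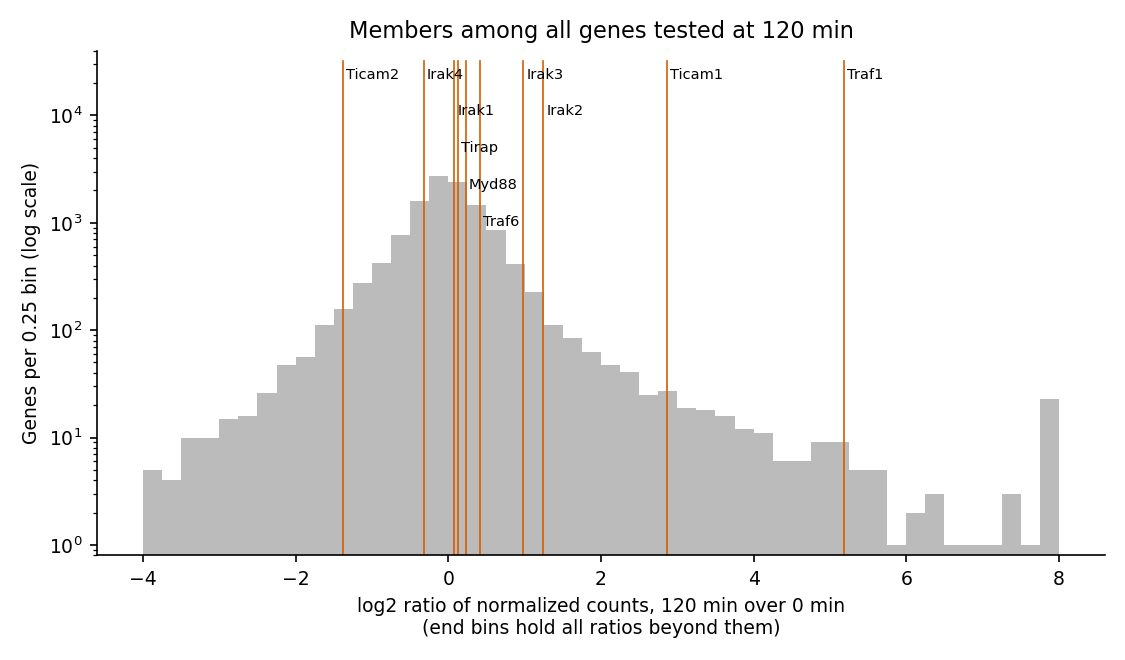
Number of tested genes per bin of 0.25 (y axis, log scale) against the log2 ratio of normalized counts at 120 min to 0 min (x axis), with an orange line for each of the 10 genes and all ratios beyond the ends gathered in the end bins. Traf1 at 5.19 and Ticam1 at 2.86 lie far to the right, Ticam2 at -1.38 lies to the left, and Irak1, Tirap, Myd88, Traf6 and Irak4 lie in the centre.

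The libraries with less Rn45s (0, 30, 60 and 120 min) and those with more (15, 45, 75 and 90 min) were also fitted alone, each with 4 libraries. With less Rn45s, 5 of the 10 genes rose and 1 fell, beside 12.2% and 9.1% of all tested genes. Myd88 (adjusted p = 0.124) and Irak4 (adjusted p = 0.104) no longer passed, and Tirap had a slope of 0.05, also short of the limit. With more Rn45s, Ticam1 and Irak3 rose and Ticam2 fell, beside 8.59% and 8.39% of all tested genes. The others were short of the limit by edgeR. Traf1 had a slope of 3.61 (adjusted p = 0.0581), Traf6 of 0.22 (adjusted p = 0.0637) and Tirap of -0.25 (adjusted p = 0.0639), all by edgeR. Irak4 had -0.19 (adjusted p = 0.0899), Irak2 0.39 (adjusted p = 0.103), Myd88 0.15 (adjusted p = 0.149) and Irak1 0.03 (adjusted p = 0.682), also by edgeR. The part of Rn45s in these values was not tested. The scale between libraries matters for the genes that moved little. With total counts as the scale the median log2 ratio of all tested genes is -0.21 at 120 min. Irak4 then becomes lower (-0.52), and Irak1 and Tirap change sign (-0.12 and -0.07). Myd88 goes from 0.229 to 0.028 and Traf6 from 0.416 to 0.215 at 120 min. On that scale Tirap is also past the limit at 75 min, with 31.2 cpm against 46.2 cpm at 0 min. Among all genes past the limit, the share that is higher goes from 64.3% to 35.8% at 45 min, from 54.9% to 42.1% at 60 min, from 53.0% to 16.0% at 75 min, from 53.3% to 24.0% at 90 min and from 51.6% to 29.8% at 120 min (30.6% with total counts without Rn45s). At 90 min Irak2 and Irak3 were within the limit on either total-count scale, and neither passed the pair test that the study used. Traf1, Ticam1, Irak2 and Irak3 stayed higher and Ticam2 stayed lower at 120 min under each scale tried, total counts, total counts without Rn45s and edgeR's TMM factors.

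To compare levels between genes, counts were divided by the number of 58-base windows that are unique to the gene in its transcripts and by the library total (rpkm, counts per 1000 such windows and per unit of library size). Before LPS, Myd88 stood first at 54.9 rpkm (Poisson 95% interval 53.9 to 55.8), followed by Irak1 at 20.01, Irak4 at 11.8, Tirap at 9.68, Irak2 at 9.63, Traf1 at 8.56, Traf6 at 8.37, Irak3 at 4.07, Ticam1 at 2.46 and Ticam2 at 1.77. Tirap and Irak2 had overlapping intervals, as did Traf1 and Traf6. The order depends in part on the length used. With the longest transcript as the length, Myd88 (42.5) and Irak1 (21.1) still led, followed by Tirap at 10.07, Irak2 at 9.52 and Irak4 at 9.51. Traf1 then stood at 5.65, below Traf6 at 8.29. The receptor-proximal adaptor and kinases of the MyD88 branch were thus present at several times the level of the endosomal adaptors in the unstimulated library.

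After 120 min Traf1 stood first at 271 rpkm (269 to 273), above Myd88 at 55.9. Irak2 at 19.8 (19.5 to 20.2) had passed Irak1 at 18.4 (18.1 to 18.7), and Ticam1 at 15.6 had passed Traf6 at 9.71, Tirap at 9.21, Irak4 at 8.20 and Irak3 at 6.98. Ticam2 remained last at 0.590 (0.533 to 0.651). With the length of the longest transcript in place of unique windows, Irak2 and Irak1 were closer still (19.6 and 19.4 rpkm). Traf1 came to 179 rpkm by that length, still the highest, and Irak3 (6.85) stood slightly above Irak4 (6.62).

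**Figure D3:**
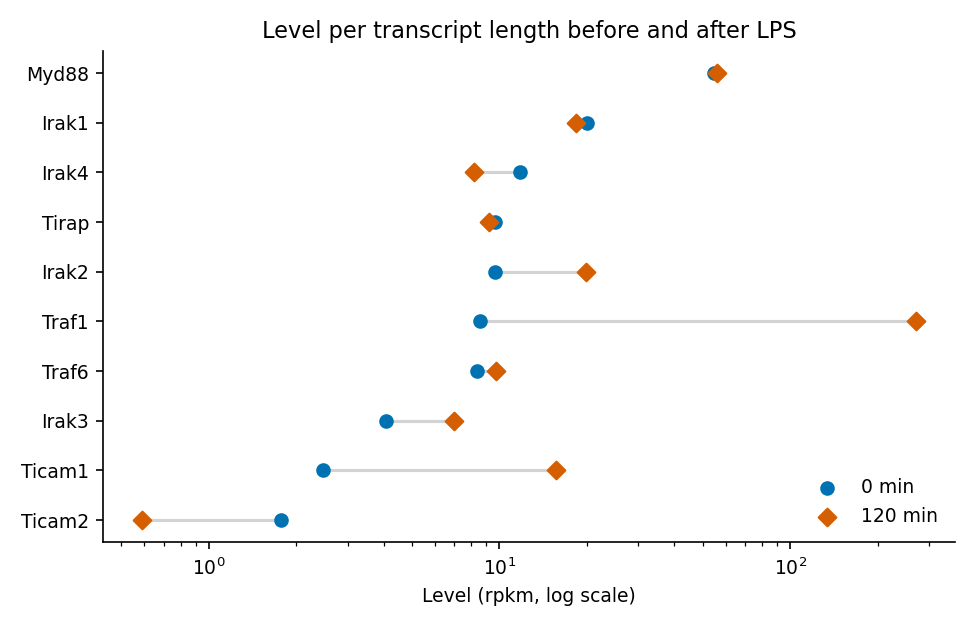
Level in rpkm (x axis, log scale) of each of the 10 genes (y axis, ordered by the level at 0 min) in the 0 min library (blue circles) and the 120 min library (orange diamonds), 1 library each. The order at 0 min runs from Myd88 at 54.9 to Ticam2 at 1.77, and Traf1 moves from 8.56 to 271.

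The balance of related genes within a library does not depend on the scale between libraries. The TRIF message began somewhat above the TRAM message, with a Ticam1 to Ticam2 ratio of rpkm of 1.39 at 0 min (1.27 to 1.53) and 1.41 at 30 min. This ratio was 9.99 at 60 min (9.11 to 10.97) and 26.4 at 120 min (23.9 to 29.4). Traf1 and Traf6 began even, at 1.02 (0.977 to 1.07), and reached 2.81 at 30 min, 16.7 at 60 min and 27.9 at 120 min (27.3 to 28.5). With longest transcripts as the length the latter ratio went from 0.681 to 18.6. The shift from Irak1 toward Irak2 was smaller, from 0.481 at 0 min (0.464 to 0.499) to 0.585 at 60 min and 1.08 at 120 min (1.05 to 1.11), most of it after 75 min, where the ratio was 0.522. The inhibitor Irak3 stood at 0.345 of Irak4 at 0 min (0.326 to 0.366) and at 0.851 of it at 120 min (0.812 to 0.893). With longest transcripts as the length it stood at 0.420 of Irak4 at 0 min and at 1.04 of it at 120 min. Which of these 2 genes was higher at 120 min thus depends on the length used.

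**Figure D4:**
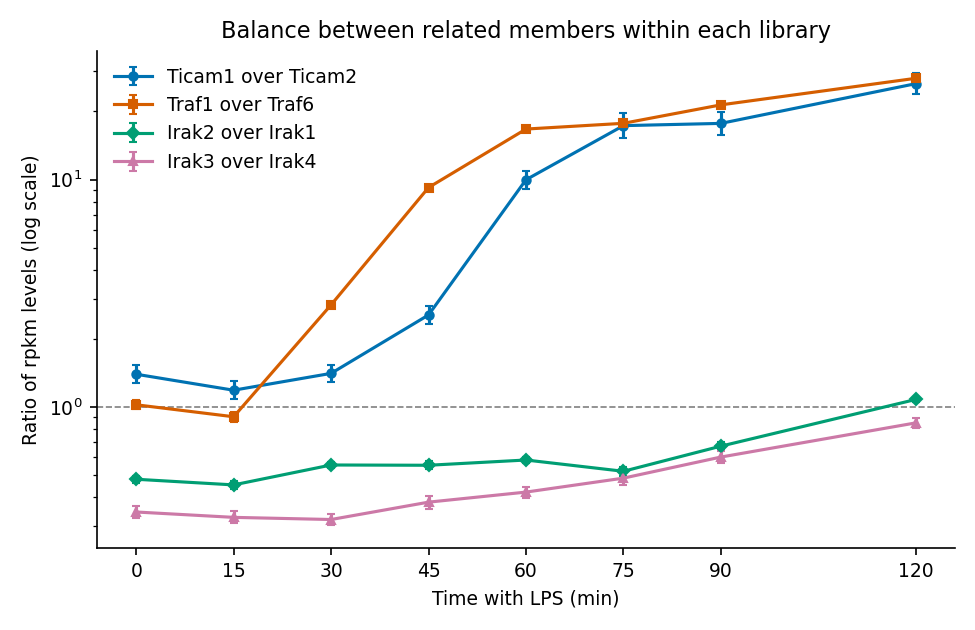
Ratio of rpkm levels of related genes within each library (y axis, log scale) against time with LPS in min (x axis), with 95% intervals for counting error as bars and a dashed line at equal levels. Ticam1 over Ticam2 and Traf1 over Traf6 start at 1.39 and 1.02 and end at 26.4 and 27.9. Irak2 over Irak1 and Irak3 over Irak4 start below 0.5 and end at 1.08 and 0.851.

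A list of 62 other genes of the pathway was described in the same way, of which 56 passed the filter on low counts. At 60 min 15 of the 56 were higher (26.8%) and 2 lower (3.57%), beside 9.08% and 7.46% of all tested genes. At 120 min 25 were higher (44.6%) and 7 lower (12.5%), beside 16.9% and 15.9% of all tested genes, and 24 were within the limit. The genes counted as higher at 60 and at 120 min include Il1r1 and Il18r1, with 2 and 3 counts at 0 min. These passed the filter on low counts only through later libraries. The median log2 ratio of the list at 120 min was 0.33, close to that of the 10 genes. By the trend test 26 of the 56 rose (46.4%) and 11 fell (19.6%), beside 23.1% and 24.2% of all tested genes.

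Upstream of the adaptors, 7 of 17 receptors and co-receptors were higher at 120 min (41.2%, beside 16.9% of all tested genes). Another 3 were lower (17.6%), near the 15.9% of all tested genes. The 7 include Il1r1 and Il18r1, with only 2 and 3 counts at 0 min and 16 and 11 counts at 120 min. Both passed the filter on low counts only through later libraries, so they lend no weight to this share. The LPS co-receptor Cd14 reached 3.65 times and the lipopeptide receptor Tlr2 3.11 times the level at 0 min, whereas Tlr4, the LPS receptor itself, stood at 0.486 (0.469 to 0.505) and Tlr13, a sensor of bacterial ribosomal RNA, at 0.314. Tlr4 and its adaptor message Ticam2 were thus both lower at 120 min, while Cd14 and Ticam1 were higher. Around TRAF1, 5 of 11 other TRAFs and partners were higher (45.5%) and 1 lower (9.09%), beside 16.9% and 15.9% of all tested genes. Cd40, a receptor that signals through TRAF proteins, reached 12.3 times (11.03 to 13.7), the TNF receptor Tnfrsf1b 4.92 times and the IAP ligase Birc3 3.27 times the level at 0 min. The other TNF receptor, Tnfrsf1a, was the lower one, at 0.580 (0.559 to 0.601). Traf2, Traf4, Traf5 and Traf7 stayed within the limit, and Traf3 was just past it with a log2 ratio of 0.58.

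Of the 6 ubiquitin enzymes tested, 1 was higher at 120 min (16.7%, near the 16.9% of all tested genes) and none lower. This was Peli1, a ligase that acts on IRAK proteins, at 1.98 times at 60 min and 6.001 times at 120 min (5.78 to 6.23). Downstream kinases were higher for 5 of 11 (45.5%) and lower for 1 (9.09%), beside 16.9% and 15.9% of all tested genes. The higher ones were led by Ikbke, a kinase of the TRIF branch, at 8.12 times (7.75 to 8.51), while its relative Tbk1 had a log2 ratio of 0.54. Tab1, a subunit of the kinase complex downstream of TRAF6, was the lower one, with a log2 ratio of -0.87.

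Inhibitors of the pathway were higher at 120 min for 7 of 11 (63.6%) and lower for 2 (18.2%), beside 16.9% and 15.9% of all tested genes. Tnfaip3, which encodes the deubiquitinase A20 that acts on TRAF6, peaked at 69.1 times the level at 0 min at 45 min (66.0 to 72.3), when Traf1 stood at 10.8 times. It was at 21.5 times at 60 min, 17.0 at 75 min and 39.8 at 120 min (38.0 to 41.7), beside 20.5, 22.9 and 36.4 for Traf1. The NF-kB inhibitor Nfkbia also dipped, from 7.25 times at 45 min to 3.67 at 60 min, and stood at 7.60 times at 120 min. At that time Tnip1 was at 4.72 times, Tank at 2.47 times and Tnip3 at 2.43 times the level at 0 min. Of these 5, Tnip1, Tank and Tnip3 passed the trend test, whereas Tnfaip3 (1.25 ± 1.08 log2 units per hour, adjusted p = 0.373, edgeR) and Nfkbia (0.96 ± 0.428, adjusted p = 0.0958, edgeR) did not. The dips of Tnfaip3 and Nfkbia count as scatter in that test, so a failed test is not a lack of change.

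**Figure D5:**
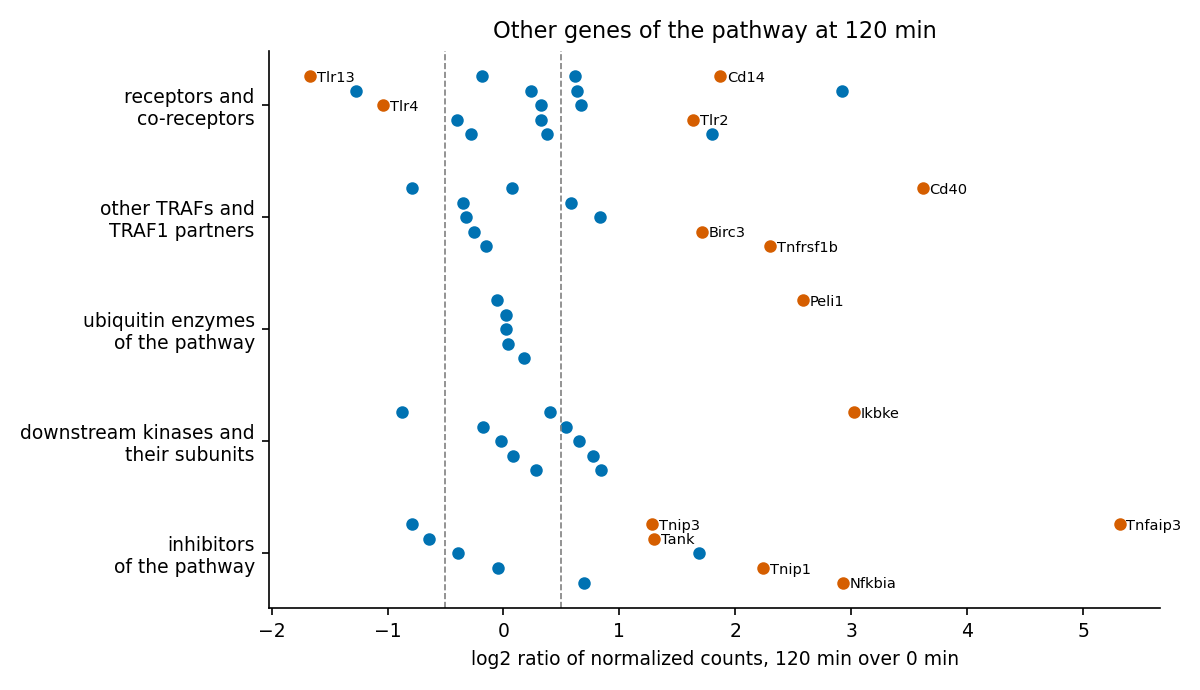
Log2 ratio of normalized counts at 120 min to 0 min (x axis) for the 56 tested genes of the pathway list, by role (y axis, points staggered for legibility), with dashed lines at 0.5 and -0.5. Named genes are orange, with Tnfaip3 at 5.31 and Cd40 at 3.62 the farthest to the right and Tlr13 at -1.67 the farthest to the left.

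For the 3 genes with the widest range over the libraries, the time courses most like theirs were sought among 1567 genes whose normalized count averaged 100 or more and spanned a log2 range of 1 or more, by Pearson's coefficient of log2(normalized count + 1). All coefficients are over the same 8 libraries and share their depth, and many genes are alike at this number of points. Traf1 was followed most closely by Clec4e (0.9996), Fosl1 (0.9973) and Bcl10 (0.9971), while 150 candidates had a coefficient above 0.95. These 3 rose far less than Traf1 did, to 8.94, 8.21 and 2.14 times the level at 0 min. Ticam1 was followed by Stk40 (0.9976), Zfp263 (0.9975) and the pseudogene Slfn10-ps (0.9955). The last belongs to a family with near-identical copies, and reads that fit several symbols were dropped. Ticam2 was followed by Zc3hav1l (0.9926), Amer1 (0.9912) and D1Ertd622e (0.9896), at 0.430, 0.486 and 0.552 of their levels at 0 min after 120 min.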

How the data were processed

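The deposited table holds the authors' raw counts of reads on each gene symbol for 8 libraries of RAW264.7 cells, 1 per time point. According to the methods, ribosomal RNA was depleted, 58-base reads were mapped with Bowtie (version not given in the sources used here) to the RefSeq transcriptome (mm10) with at most 2 mismatches, and a read was dropped when it fit transcripts of several symbols. The submitters' processing notes name CASAVA 1.8.2 and DESeq 1.10.1. No source used here says whether counting used the strand. Library totals were 100250892 to 159077286, and a count of 0 would allow 3 counts, at most 0.0299 cpm. No column was left unused and 0 rows lacked a gene name.

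Size factors, ratios, exact intervals, rpkm and the promoter search were computed in Python 3.11.15 with scipy 1.17.1, numpy 2.4.6, numba 0.67.0, pandas 2.3.3 and matplotlib 3.10.9, and the trend with edgeR 4.0.16 (TMM factors, glmQLFit and glmQLFTest, adjusted p limit 0.05) in R 4.3.3. Because each time point has 1 library, the fold limit of the study (log2 ratio beyond 0.5) was used without its test of library pairs, which was run as an alternative and compares libraries, not conditions. Unique 58-base windows were counted in GENCODE vM21 transcripts matched by RefSeq accession. Of the transcripts' distinct windows, 14 of 4786 for Tirap, 62 of 4113 for Irak1 and 34 of 3194 for Irak2 are shared with other genes, and reads there would have been discarded. Gene coordinates come from the RefSeq gene table and promoter sequences from RefSeq, both of GRCm38.

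The genes, the pathway list, the markers and the tests were chosen with earlier results of these data known. Named genes of the pathway list average 100 or more normalized counts and have a log2 ratio beyond 1 at 60 or 120 min, at most 6 per role. Traf2, Traf3, Traf4, Traf5, Traf7, Tnfrsf1a, Tbk1, Tab1, Il1r1 and Il18r1 were named after their values were seen. The alternatives were total counts, total counts without Rn45s, TMM factors and size factors as the scale, a log2 limit of 1, the pair test, a pseudocount of 1, no filter on low counts, the mean of 0 and 15 min as the reference, DESeq2 1.42.0, a spline, each library left out, both sets of 4 libraries and Spearman's coefficient. The 15 min library alone as the reference was added after seeing the data. The authors' microarray measurements were not used here.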

Additional observations from a re-analysis of the deposited data

How the results depend on the processing

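Of the counts recomputed under alternatives, 195 stayed within 1.5 times the value reported and 26 did not. Some of the 195 could not move. The 10 genes average 626 normalized counts or more, so leaving out the filter could not change which were past the fold limit. A count of 0 that stayed 0 was scored as unchanged. Of the values for single genes, 256 stayed the same, 51 left the counting interval of the main value and 1 changed sign. The trend test was no longer passed in 10 cases and newly passed in 2. With total counts as the scale, 2 of the 10 genes were lower at 75 min and 2 at 120 min (beside 30.9% and 25.3% of all tested genes), and 2 were higher at 90 min (8.11%). On that scale 4 and 11 of the 56 genes of the pathway list were lower at 60 and 120 min, beside 10.1% and 25.3% of all tested genes. Total counts without Rn45s gave 2 higher at 90 min (10.2%) and 2 lower at 120 min (24.9%). A log2 limit of 1 left 1 of the 10 genes higher at 45 min (3.4%), 0 lower at 60 min (1.98%) and 2 higher at 90 min (5.43%). Of the 56 genes of the list it left 0 lower at 60 min (1.98%), 15 higher at 120 min (6.39%) and 3 lower at 120 min (6.02%). With the pair test, 2 of the 10 were higher at 90 min (7.31%) and 0 of the list were lower at 60 min (3.02%). The 0, 30, 60 and 120 min libraries alone gave 1481 genes that rose and 1107 that fell (2588 in all), 1 of the 10 among those that fell, and Tirap had the opposite slope, 0.052. The 15, 45, 75 and 90 min libraries alone gave 1045 and 1021 (2066 in all), with 2 of the 10 higher, 1 lower and 3 in all. With fewer libraries the test also has fewer degrees of freedom. Leaving out each library in turn gave 7 to 8 changed genes of the 10, 5 to 6 higher and 2 to 3 lower, and 4802 to 5967 changed genes in all. With a spline Myd88 no longer passed (adjusted p = 0.091, edgeR). With Spearman's coefficient 3 of the 9 named neighbours were again among the closest. With the 15 min library alone as the reference, chosen after seeing the data, no count of the 10 genes left that range. No paired analysis was possible because each time point has 1 library, so that any 2 time points share fewer than 2 replicate numbers.

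With 1 library per time point, neither the folds nor the order of the onset times has a replicate check, and counting intervals understate the spread between cultures. The deposited counts are per gene symbol, so isoforms of these genes were not resolved.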
